A study of Mus musculus with 3 samples.

Results

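L1Md elements are the L1 LINE retrotransposons that RepeatMasker names L1Md_A, L1Md_T, L1Md_Gf, L1Md_F, L1Md_F2 and L1Md_F3 in the mouse genome. They were examined in a ChIP-seq experiment on cultured mouse neural stem cells, as peaks whose centre the authors' annotation placed in an element of the L1 family with a name beginning with L1Md. The rule took 543 of the 16113 peaks of the Seh1 list and 756 of the 5314 peaks of the IgG list, 1299 of 21427 peaks in all. All 6 names occurred in both lists, and no peak carried another L1Md name. The word "young" was not checked, because age is read from sequence and no element sequence was used here.

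The cells were wild-type primary neural stem cells grown as attached cultures from newborn cortex, in growth medium with EGF and bFGF. The groups were an immunoprecipitation of Seh1, a nucleoporin of the Nup107-160 complex and also a GATOR2 subunit, an immunoprecipitation with IgG, which has no chromatin target, and an input of unprecipitated chromatin. The genotype, tissue and medium were the same in all of them. With 1 library per group there is no replicate error and no test of conditions, and a stated difference is one between the 2 lists alone. The headers of both lists name the input beside the antibody; the input itself was not analysed here. Every peak was deposited with a score of 0, so the lists hold positions and widths but no heights, and the read depth is unknown. A list of peaks cannot show the labelled cell type, and it was not checked.

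L1 elements copy themselves through an RNA that is transcribed from a promoter inside the element and reverse transcribed into a new genomic site. Mouse subtypes carry different promoter repeats, called monomers, at the 5′ end. The A, T (also written Tf) and Gf subtypes include the copies known to be active in mice, whereas the F subtypes are regarded as older. Neural progenitors are known as somatic cells in which L1 can be transcribed and can move. Copies of a subtype resemble one another and lie in a great many places, and how alike they are was not measured here. The sources used here do not say how reads that map to several places were handled. A peak in such an element may therefore mark a subtype with more certainty than it marks one copy.

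L1Md elements took a smaller part of the Seh1 list than of the IgG list. They were at 3.37% of Seh1 peaks (95% exact binomial interval 3.10 to 3.66%) and at 14.2% of IgG peaks (13.3 to 15.2%). The ratio of these shares, Seh1 over IgG, was 0.237 (0.212 to 0.265). All intervals cover counting error only, and they are too narrow where neighbouring peaks are not independent. The Seh1 list was the longer one by far, yet it held fewer L1Md peaks in number. By length, L1Md peaks made up 3.35% of the base pairs under Seh1 peaks and 13.8% of those under IgG peaks. Within the L1 family, L1Md names accounted for 33.1% of 1642 Seh1 peaks and 45.4% of 1667 IgG peaks. The ratio for L1 outside L1Md was 0.398 (0.364 to 0.435), an interval above that of L1Md. That group was mixed, with ratios of 0.604 for Lx names, 0.445 for L1VL names and 0.424 for L1_Mus names. For the remaining L1 names it was 0.103 (0.0802 to 0.132), an interval below that of L1Md.

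The 2 subtypes with the lowest ratios were L1Md_T and L1Md_A, both of which include active copies. L1Md_T was at 121 Seh1 peaks (0.751%) and at 316 IgG peaks (5.95%), a ratio of 0.126 (0.102 to 0.156). L1Md_A was at 88 Seh1 peaks (0.546%) and at 181 IgG peaks (3.41%), a ratio of 0.160 (0.123 to 0.208). Their intervals overlap, so the order of these neighbours is not resolved.

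L1Md_F3, L1Md_F2 and L1Md_Gf followed. L1Md_F3, the rarer of these F names, was at 30 Seh1 and 38 IgG peaks, a ratio of 0.260 (0.156 to 0.432). L1Md_F2, the most frequent subtype of the Seh1 list, was at 173 Seh1 peaks (1.07%) and 188 IgG peaks (3.54%), a ratio of 0.303 (0.245 to 0.375). L1Md_Gf, the other subtype with active copies, was at 18 Seh1 and 16 IgG peaks, a ratio of 0.371 (0.179 to 0.778). These 3 intervals overlap one another. The interval of L1Md_F2 lies above those of L1Md_T and L1Md_A, whereas those of L1Md_F3 and L1Md_Gf overlap that of L1Md_A.

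L1Md_F alone among the 6 names had the larger share in the Seh1 list. It was at 113 Seh1 peaks (0.701%, 0.578 to 0.843%) and at 17 IgG peaks (0.320%, 0.186 to 0.512%), a ratio of 2.19 (1.31 to 3.90). Its interval does not overlap that of any other L1Md name. On the autosomes, a restriction chosen after seeing the data, the ratio was 1.67 and its interval of 0.967 to 3.05 reached below 1. Those autosomal counts were 81 Seh1 and 16 IgG peaks.

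**Figure D1:**
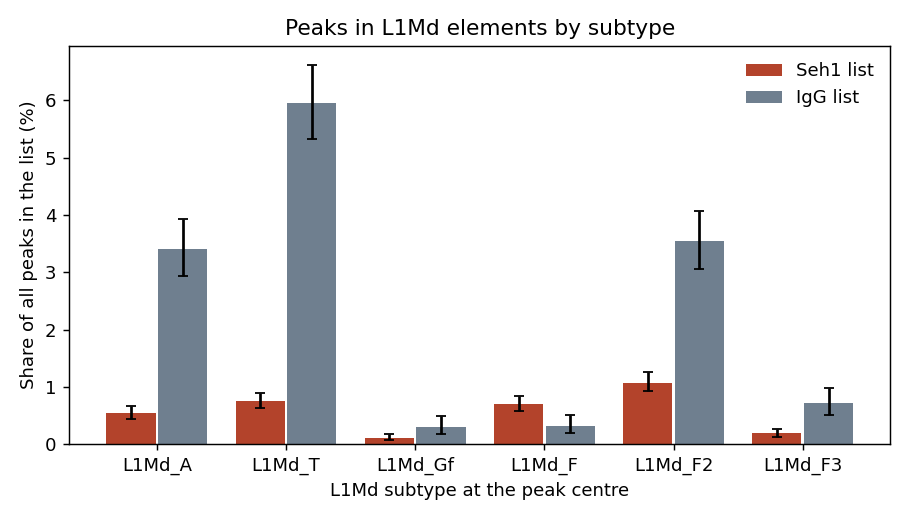
Share of all peaks of a list whose centre lay in each L1Md subtype, in percent, with the Seh1 list left of the IgG list and bars for 95% exact binomial intervals. The IgG bar is the taller for 5 subtypes, most of all for L1Md_T (0.751% against 5.95%), and the Seh1 bar is the taller for L1Md_F (0.701% against 0.320%).

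These ratios were set beside all 110 repeat names that had at least 20 peaks in both lists together. A name counted as past the fold when its ratio was below 0.5 or above 2. Below 0.5 lay 5 of the 6 L1Md names, and 26.4% of all names. Above 2 lay 1 of the 6, L1Md_F, and 44.5% of all names, so its side of the line was the commoner one in these lists. Among 28 other L1 names, 16 lay below 0.5 and 3 above 2. The median ratio was 0.282 over the L1Md names, 0.450 over the other L1 names and 1.61 over all names. The L1Md names were not at the bottom of the order. Several older L1 names had ratios under that of L1Md_T, with Lx6 at 0.0682, L1_Mur3 at 0.0920 and Lx7 at 0.106. Near L1Md_F in the order stood the older L1 names Lx at 1.86 (180 Seh1 and 32 IgG peaks) and Lx3B at 2.23 (27 and 4 peaks).

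**Figure D2:**
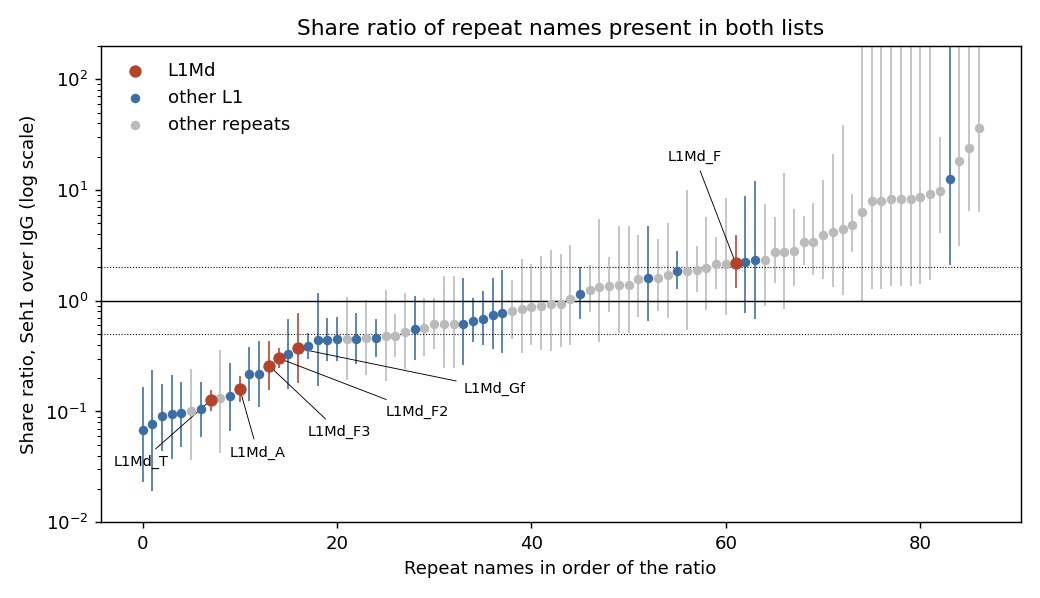
Ratio of a repeat name's share in the Seh1 list to its share in the IgG list, on a log scale, for the 87 of 110 names found in both lists, in order of the ratio, with 95% intervals as vertical lines (some cut at the top of the axis) and dotted lines at 0.5 and 2. Red points are the L1Md names, of which 5 lie between 0.126 and 0.371 and L1Md_F lies at 2.19; blue points are other L1 names, which span nearly the whole order.

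Within L1Md, the makeup by subtype differed between the lists, a measure that does not depend on how many peaks of other kinds a list holds. L1Md_F made up 20.8% of Seh1 L1Md peaks (17.5 to 24.5%) and 2.25% of IgG L1Md peaks (1.32 to 3.58%). L1Md_F2 made up 31.9% (28.0 to 36.0%) of the Seh1 set and 24.9% (21.8 to 28.1%) of the IgG set, with intervals that just overlap. L1Md_T made up 22.3% (18.9 to 26.0%) of the Seh1 set and 41.8% (38.3 to 45.4%) of the IgG set. L1Md_A made up 16.2% (13.2 to 19.6%) and 23.9% (20.9 to 27.1%). The F-type L1Md_F2 thus led the Seh1 set and L1Md_T led the IgG set. L1Md_Gf (3.31% and 2.12%) and L1Md_F3 (5.52% and 5.03%) had overlapping intervals.

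L1Md peaks were spread over every placed chromosome in both lists. On all 19 autosomes their share of the peaks there was lower in the Seh1 list. It ran from 1.10% on chromosome 11 to 4.01% on chromosome 7 in the Seh1 list, and from 7.69% on chromosome 13 to 22.8% on chromosome 18 in the IgG list. The X chromosome, which is known to be rich in L1, had higher shares than any autosome in both lists. There L1Md elements were at 72 of 327 Seh1 peaks (22.0%, 17.6 to 26.9%) and at 46 of 106 IgG peaks (43.4%, 33.8 to 53.4%). X held 13.3% of all Seh1 L1Md peaks and 6.08% of all IgG L1Md peaks, but only 1.60% and 1.31% of the other intron and intergenic peaks of these lists.

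Y was the only placed chromosome where the L1Md share was higher in the Seh1 list. Its long arm is known to consist largely of gene families repeated many times over. L1Md elements were at 45 of 126 Seh1 peaks there (35.7%, 27.4 to 44.7%) and at 3 of 17 IgG peaks (17.6%, 3.80 to 43.4%). With so few IgG peaks the 2 shares overlap. Y held 8.29% of Seh1 L1Md peaks, against 0.559% of the other intron and intergenic Seh1 peaks. All 45 were intergenic, and they ran from 1.62 to 89.5 Mb with a median spacing of 1.11 Mb and a largest gap of 17.8 Mb. Their median width was 266 bp. The labels do not give the sex of the animals.

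**Figure D3:**
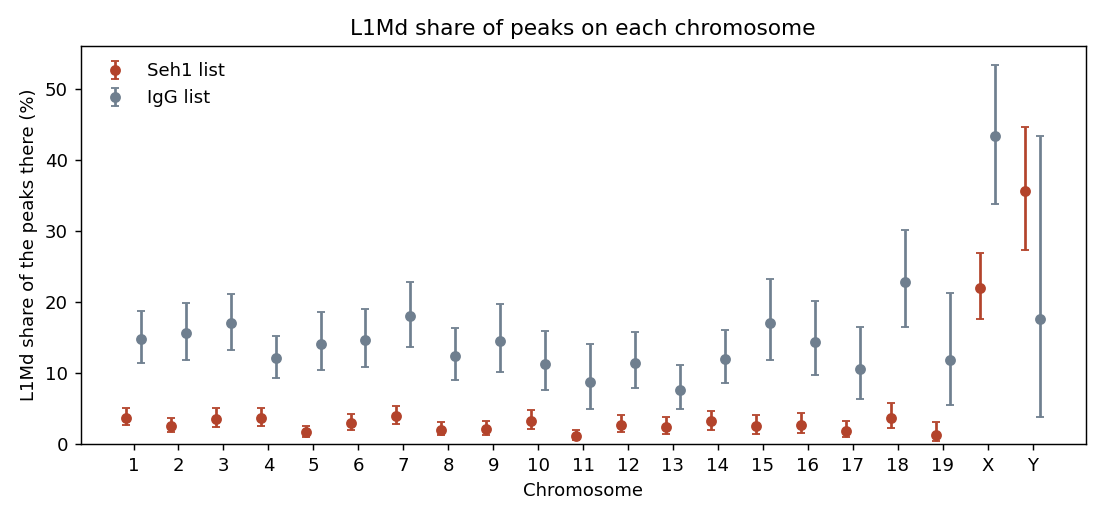
Share of a list's peaks on each chromosome that lay in L1Md elements, in percent, with 95% exact binomial intervals (Seh1 left of IgG at each chromosome). Seh1 points lie below IgG points on all 19 autosomes, X lies above every autosome in both lists (22.0% and 43.4%), and the Seh1 point on Y is at 35.7%.

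The subtypes were not spread alike over autosomes, X and Y. On X, L1Md_A and L1Md_T together made up 59.7% of Seh1 L1Md peaks (47.5 to 71.1%) and 84.8% of IgG L1Md peaks (71.1 to 93.7%). On the autosomes they made up 36.2% (31.7 to 41.0%) in the Seh1 list and 64.6% (61.0 to 68.2%) in the IgG list. L1Md_F was at 10 of 72 Seh1 L1Md peaks on X and at 0 of 46 IgG ones, which allows a share of up to 6.52%. On Y, L1Md_F alone was at 22 of 45 Seh1 L1Md peaks (48.9%, 33.7 to 64.2%), and on the autosomes at 81 of 425 (19.1%, 15.4 to 23.1%). L1Md_Gf was at 5 of the 45 on Y and at 12 of the 425 on the autosomes. The ratio of shares also differed by chromosome. For L1Md_T it was 0.268 (0.149 to 0.477) on X and 0.107 (0.0838 to 0.136) on the autosomes, and for L1Md_A it was 0.616 (0.272 to 1.48) on X and 0.119 (0.0872 to 0.160) on the autosomes. For all L1Md it was 0.507 (0.346 to 0.751) on X and 0.199 (0.176 to 0.224) on the autosomes.

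**Figure D4:**
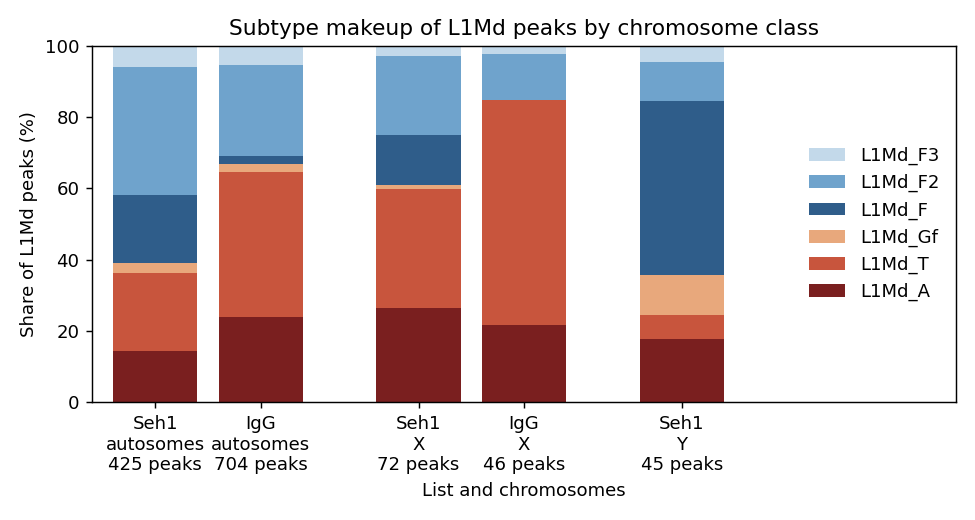
Subtype makeup of L1Md peaks, as stacked percentages, for autosomes and X in the Seh1 and IgG lists and for Y in the Seh1 list; the 3 IgG peaks on Y are left out. L1Md_F takes 48.9% of the Seh1 bar on Y, while L1Md_A and L1Md_T together take 84.8% of the IgG bar on X.

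Seh1 L1Md peaks lay farther from genes than IgG L1Md peaks. In the Seh1 list 473 were intergenic (87.1%, 84.0 to 89.8%) and 70 intronic, and in the IgG list 585 were intergenic (77.5%, 74.3 to 80.4%) and 170 intronic. One more IgG peak, on an unplaced contig, had no class. Among the other intron and intergenic peaks 58.6% of the Seh1 and 63.0% of the IgG peaks were intergenic. Other repeats came nearer to L1Md. For L1 outside L1Md the share was 70.5% (67.7 to 73.2%) in the Seh1 list and 74.6% (71.6 to 77.4%) in the IgG list. For peaks of the repeat class LTR it was 76.5% (74.8 to 78.0%) and 74.1% (70.1 to 77.9%). In the IgG list the intervals of both groups overlap that of L1Md, and in the Seh1 list both lie below it. The median distance from a peak centre to the nearest transcription start site (TSS) was 161 kb (95% interval 135 to 182 kb) for Seh1 L1Md peaks and 98.1 kb (83.5 to 117 kb) for IgG L1Md peaks. It was 39.8 kb and 56.9 kb for the other intron and intergenic peaks, so the lists stood in the opposite order there. L1 peaks outside L1Md had medians of 62.4 kb in the Seh1 list and 66.5 kb in the IgG list.

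Distances varied among the subtypes. L1Md_F2 had a median of 214 kb (146 to 291 kb) in the Seh1 list and 60.0 kb (50.4 to 90.3 kb) in the IgG list. For L1Md_A the medians were 153 kb (91.6 to 201 kb) and 132 kb (107 to 157 kb), and for L1Md_T 135 kb (93.8 to 167 kb) and 102 kb (78.8 to 126 kb), with overlapping intervals. L1Md_F had 162 kb (98.0 to 222 kb) in the Seh1 list and 50.2 kb (19.0 to 188 kb) in the IgG list, where it rests on 17 peaks. Within 10 kb of a TSS lay 28 Seh1 L1Md peaks (5.16%) and 52 IgG L1Md peaks (6.89%), and beside them 16.1% and 13.3% of the other intron and intergenic peaks. No Seh1 L1Md peak lay closer to a TSS than 1.75 kb, and no IgG one closer than 2.75 kb.

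**Figure D5:**
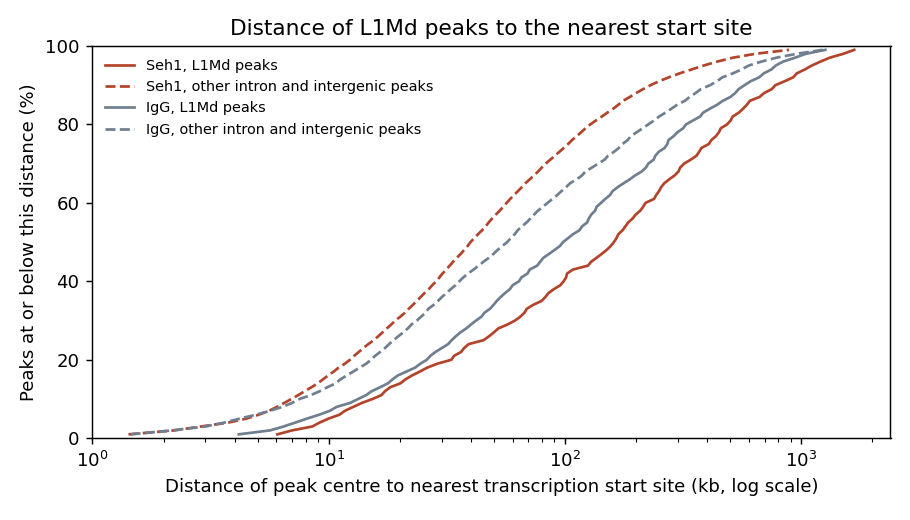
Cumulative share of peaks by distance from the peak centre to the nearest transcription start site, in kb on a log scale, for L1Md peaks (solid) and other intron and intergenic peaks (dashed) of the Seh1 and IgG lists. The solid Seh1 curve lies farthest to the right (median 161 kb) and the dashed Seh1 curve farthest to the left through the middle of the range (39.8 kb).

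The surroundings were poor in genes. The median Seh1 L1Md peak had 2 protein-coding genes within 500 kb on either side and the median IgG L1Md peak had 4, beside 8 and 5 for the other intron and intergenic peaks. None was found in that window for 132 of 542 Seh1 L1Md peaks on placed chromosomes (24.4%) and for 132 of 753 IgG L1Md peaks (17.5%). Among the subtypes, L1Md_F2 stood lowest in the Seh1 list, with a median of 1 gene and none for 33.5% of its peaks; in the IgG list its median was 4 and the share with none was 15.0%.

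The intronic peaks lay in long genes. A host gene was found in the RefSeq table for 63 of 70 Seh1 and 157 of 170 IgG intronic L1Md peaks. Their 60 Seh1 hosts had a median length of 273 kb and their 138 IgG hosts one of 271 kb, whereas hosts of the other intronic peaks had medians of 77.0 kb in the Seh1 list and 115 kb in the IgG list. Long genes hold more elements of every kind, and a host count does not take that into account. The lists shared 7 host genes, named here because they held peaks of both. They were Dmd, which encodes dystrophin, the cadherin gene Cdh18, the carboxypeptidase gene Cpq, Nkain2, the ubiquitin ligase gene Marchf1, Ppp2r3a, a regulatory subunit of protein phosphatase 2A, and 1700110I01Rik. In Dmd the Seh1 peak was an L1Md_A in intron 45 of 78 and the IgG peak an L1Md_T in intron 34. How many hosts of other intronic peaks the lists shared was not computed, so the 7 cannot be read as particular to L1Md.

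Most genes that were given an L1Md peak, by the nearest TSS, were given 1 only. That held for 402 of 460 genes in the Seh1 list and 556 of 649 in the IgG list. The lists had 108 such genes in common, which is 23.5% of the Seh1 and 16.6% of the IgG genes. The same overlap for genes given any peak was not computed, so these shares cannot be read as particular to L1Md. In the Seh1 list 9 gene symbols had at least 3 L1Md peaks. Of these, 6 lay on Y: Gm20871, a Sycp3-like Y-linked pseudogene, with 9 Seh1 peaks and 1 IgG peak, Gm20736 and Gm20854 with 4 each, and Gm20809, Gm20816 and Gm20917 with 3 each. The 9 peaks of Gm20871 spread over 29743 kb, so the symbol stands for several annotated copies, and each peak lay 131 to 2317 kb from the nearest of these TSSs, and 5 were in L1Md_F. The peaks of Gm20736 and Gm20917 were likewise spread, over 47565 and 55798 kb. The others were Gria3 on X with 3 peaks, A530072M11Rik on chromosome 4, with 4 peaks in L1Md_F and L1Md_F2, 112 to 668 kb away, and B230118H07Rik on chromosome 2, with 4 peaks 928 to 1505 kb away. Gria3 lies beyond the 8 genes per list that the naming rule allows and was chosen after its value was seen.

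In the IgG list 10 genes had at least 3 L1Md peaks, and the 8 named lay on autosomes. Gm21119, on chromosome 8, had 4, all classed as intronic and 3 of them in L1Md_F3. It lies in a region where IgG peaks crowd, at 20 or more per 1 Mb; the 14 bins of that kind held 0.737% of Seh1 L1Md peaks and 2.51% of IgG L1Md peaks, beside 1.93% of all Seh1 and 11.8% of all IgG peaks. With 3 peaks each followed Adgre1, which encodes the macrophage antigen F4/80, Itgbl1, an integrin-like gene, Ctnnd2, which encodes delta-catenin of neurons, and Kcna4, a voltage-gated potassium channel gene. The 3 peaks of Adgre1 were all L1Md_T in its introns, between 57373273 and 57433860 on chromosome 17. 4930459L07Rik, 4930556G01Rik and Gm15501 also had 3 each. None of these 8 genes was given more than 1 Seh1 L1Md peak. Of the 460 genes given a Seh1 L1Md peak, 402 were given 1 only, so this cannot be read as particular to the 8.

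Lists of genes were also read against the L1Md peaks. Of 21 genes known to restrain or regulate L1, among them Trim28, Setdb1, Morc2a and Tasor, 0 were given a Seh1 L1Md peak and 0 an IgG one, which allows a share of up to 14.3% in each; of all protein-coding genes 1.54% were given a Seh1 and 2.34% an IgG L1Md peak. Any peak of the Seh1 list was given to 10 of the 21, beside 31.9% of all protein-coding genes, and any IgG peak to 1, beside 11.3%.

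Of 28 long neural and fragile-site genes, 9 (32.1%) were given a Seh1 L1Md peak and 8 (28.6%) an IgG L1Md peak, beside the 1.54% and 2.34% of all protein-coding genes. Any peak was given to 24 of the 28 (85.7%) in each list, beside 31.9% and 11.3%. The list was made of long genes, and the share over all protein-coding genes is not matched on length. The 9 of the Seh1 list were Dmd, the neurexin gene Nrxn3, the glutamate receptor gene Grm7, the phosphatase gene Ptprd, the protocadherin gene Pcdh9, Csmd3, the adhesion gene Lsamp, the synaptic organizer Il1rapl1 and Cntnap5a. F-type elements (L1Md_F or L1Md_F2) were at 6 of these 9 peaks, and 4 of the 9 were intronic. Over all Seh1 L1Md peaks L1Md_F made up 20.8% and L1Md_F2 31.9%, and 12.9% were intronic. The IgG list gave 11 peaks to Pcdh15, Nlgn1, Pcdh9, Cdh12, Il1rapl1, Cntnap5a, Csmd1 and Lrp1b, of which 8 were L1Md_T and 7 were intronic. Over all IgG L1Md peaks 41.8% were L1Md_T and 22.5% were intronic. With 9 and 11 peaks, no preference for a subtype can be read from these counts. Pcdh9, Il1rapl1 and Cntnap5a were in both sets, through different peaks.

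Peak width, the only size a peak has in these lists, differed little. The median was 272 bp (267 to 277 bp) for Seh1 L1Md peaks and 270 bp (263 to 278 bp) for IgG L1Md peaks. The smallest width of a list was 243 bp for Seh1 and 236 bp for IgG, and 22.1% (18.7 to 25.8%) of Seh1 and 34.3% (30.9 to 37.8%) of IgG L1Md peaks had it. Among all peaks outside L1Md 27.3% and 38.6% had it. The share of L1Md peaks at the smallest width thus differed between the lists, with intervals that do not overlap. Among L1Md peaks wider than the smallest width, the median was 291 bp in the Seh1 list and 313 bp in the IgG list. L1Md_F peaks were at the smallest width in 15.0% of Seh1 cases (9.01 to 23.0%), and L1Md_F2 peaks in 28.9% (22.3 to 36.3%). In the IgG list L1Md_F2 reached 43.1% (35.9 to 50.5%) and L1Md_T 30.4% (25.4 to 35.8%).

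The widest Seh1 L1Md peak, 924 bp in an L1Md_F2 on chromosome 16 from 3242476 to 3243399 (mm10), was one of 2 that overlapped an IgG peak. The next was an L1Md_F3 of 641 bp on chromosome 12 from 113872101 to 113872741, nearest to the TSS of Adam6a. On X followed an L1Md_F2 of 548 bp, 68.4 kb upstream of the kinase gene Stk26, and an L1Md_T of 521 bp, 452 kb upstream of its nearest TSS, that of 4930415L06Rik. An L1Md_F2 of 519 bp lay 95.7 kb upstream of Fibin on chromosome 2. The widest L1Md_F, of 503 bp, lay 33.3 kb upstream of Fshb, which encodes the beta subunit of follicle-stimulating hormone, the widest L1Md_A, of 470 bp, in intron 13 of 26 of Thsd7a, and the widest L1Md_Gf, of 425 bp, on chromosome 3 nearest to Gm30223.

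In the IgG list the widest was an L1Md_T of 806 bp in the last intron, 10 of 10, of Ccser1 on chromosome 6. An L1Md_F3 of 725 bp on chromosome 8 was classed by the authors' annotation as an intron of a transcript of Gm21119, a symbol placed at several sites, with 6820431F20Rik as the nearest TSS, and an L1Md_A of 723 bp in intron 2 of 10 of Itgbl1. An L1Md_T of 697 bp lay nearest to Mir6373, and an L1Md_F2 of 696 bp nearest to H60c, which encodes a ligand of natural killer cells. The widest L1Md_F, of 493 bp, lay in intron 15 of 27 of Thsd7b and the widest L1Md_Gf, of 447 bp, 6.43 kb upstream of Sf3b5. None of these 7 overlapped a Seh1 peak.

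Few L1Md peaks of either list overlapped a peak of the other, and few peaks of any kind did. Of 543 Seh1 L1Md peaks 2 overlapped any IgG peak by at least 1 bp (0.368%), beside 0.372% of all Seh1 peaks, and of 756 IgG L1Md peaks 1 overlapped a Seh1 peak (0.132%), beside 1.13% of all IgG peaks. The only overlap of L1Md with L1Md was in an L1Md_F3 on chromosome 5, with Ugt2b37 as the nearest TSS, where the Seh1 peak from 87234283 to 87234592 shared 196 bp with the IgG peak from 87234219 to 87234478. The other was the widest Seh1 peak above, which shared 606 bp with an intergenic IgG peak of 2194 bp that had no repeat name.

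A full-length L1 spans about 7 kb, so peaks closer than that may lie in 1 copy. Within 7 kb of an IgG L1Md peak lay 16 Seh1 L1Md peaks (2.95%), and within 7 kb of a Seh1 one lay 17 IgG peaks (2.25%). The share of all peaks that lay so near the other list was not computed. The L1Md peaks made 17 pairs, of which 11 had the same subtype name on both sides, among them 6 pairs of L1Md_T and 3 of L1Md_F2. These names were the most frequent in both lists (22.3% and 31.9% of Seh1, 41.8% and 24.9% of IgG L1Md peaks). How many pairs would share a name without a common copy was not computed. Of the L1Md_T pairs, one lay 1761 bp apart upstream of Gria3, an AMPA receptor gene on X, and one 305 bp apart with Rfx8 on chromosome 1 as the nearest TSS; these 2 were chosen after their values were seen. Within a list, 2 Seh1 L1Md peaks (0.368%) and 31 IgG L1Md peaks (4.10%) had an L1Md neighbour of the same list within 7 kb. Any peak of the same list lay within 7 kb of 2.76% of Seh1 and 7.28% of IgG L1Md peaks, beside 16.9% and 18.6% of the other peaks.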

How the data were processed

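ChIP-seq libraries of mouse neural stem cells were compared, 1 library per group, through the peak lists of the Seh1 and IgG libraries. Per the file headers, the authors ran HOMER annotatePeaks.pl on the peaks with mm10. The submitters' processing notes name Bowtie2 and HOMER with no version, and list hg18 and hg38; mm10 is used because the headers name it and the genes are mouse genes. No source used here gives the peak caller, its threshold or read filters. The deposited peak score is 0 in every row. Repeat names were given for peaks classed as intron or intergenic, by the peak centre.

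Members were taken by repeat name. Shares carry 95% exact (Clopper-Pearson) binomial intervals, ratios of shares an exact conditional interval, and medians an order-statistic interval. The limit for a count of 0 among the 21 genes that regulate L1 uses 3 counts. No p-values were computed. The ratio script was tested on simulated data. Genes came from the RefSeq table of GRCm38.p6 after 394 genes listed below 3 Mb off Y were left out, leaving 49599, of which 21775 were protein-coding; 1 gene of each list was written under 2 symbols, and 1 gene of each list is not reported here and is left out of its counts. Regions and genes named were the 5 widest L1Md peaks of each list, the widest per subtype, up to 8 genes per list with at least 3 L1Md peaks, overlaps between lists, and genes of the 2 gene lists with an L1Md peak; others named are said to be chosen after their values were seen or stand for a place in an order. The members and lists were chosen with earlier results of these data known. Python 3.11.15, pandas 2.3.3, scipy 1.17.1 and matplotlib 3.10.9 were used.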

Additional observations from a re-analysis of the deposited data

How the results depend on the processing

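Of 158 alternative values for 41 results, 135 stayed within the interval of the reported value or, for counts, within 1.5 times it. A change of direction was looked for in the ratios of shares alone, and 0 of them changed. The L1Md_F ratio of 2.19 was 1.67 on autosomes, within its interval but no longer past 2-fold. The Seh1 share of 3.37% was 3.70% of intron and intergenic peaks, 3.67% with peaks within 7 kb counted as 1 and 2.73% on autosomes; the IgG share of 14.2% was 15.7% without 1 Mb bins dense in IgG peaks and 15.5% with peaks within 7 kb counted as 1. On autosomes, an alternative chosen after seeing the data, the ratio was 0.199 for all L1Md and 0.119 for L1Md_A. Among peaks wider than the smallest width, medians were 291 bp (Seh1) and 313 bp (IgG), and L1Md_F2 made up 21.5% of IgG L1Md peaks. Names below the fold numbered 44 with at least 10 peaks, 15 with at least 50 and 18 past 3-fold, in place of 29; names above it numbered 86 and 16 with at least 10 and 50 peaks, in place of 49; past 3-fold, 0 L1Md names lay above. With centres within 1 kb, 4 Seh1 and 4 IgG L1Md peaks met the other list, in place of 1 each; within 2 and 20 kb, 10 and 26 Seh1 and 11 and 29 IgG peaks did, in place of 16 and 17; 8 Seh1 peaks had a neighbour of their own list within 20 kb, in place of 2. The cause of these shifts was not tested, except that wider windows and lower minimums take in more by construction. No paired analysis was possible because each group had 1 library and the labels carry no replicate number. The unknown depth limits any count: deeper sequencing can also lengthen a list.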

Other observations

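Of the bins of 1 Mb, 455 held a Seh1 L1Md peak and 595 held an IgG one, and 382 and 466 of these held 1 only. Several Seh1 bins with 3 or 4 L1Md peaks held 0 IgG L1Md peaks. The share of all bins with 0 IgG L1Md peaks was not computed, so this cannot be read as particular to these bins. An example was 16 to 17 Mb on chromosome 4 around A530072M11Rik, where 4 of 8 Seh1 peaks lay in L1Md elements. In another, 50 to 51 Mb on X around Stk26 and the olfactory receptor genes Olfr1323 and Olfr1324, all 3 Seh1 peaks did. The IgG bin with the most, 22 to 23 Mb on chromosome 7 among vomeronasal receptor genes such as Vmn1r148, Vmn1r158 and Vmn1r159, held 2 Seh1 and 6 IgG L1Md peaks. Other bins held several of both lists: 115 to 116 Mb on chromosome 4 held 3 Seh1 and 3 IgG L1Md peaks, 5 to 6 Mb on chromosome 1 held 4 Seh1 and 2 IgG ones, and 31 to 32 Mb on chromosome 7 held 3 Seh1 and 2 IgG ones. These bins were chosen after their counts were seen.

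Among older L1 names, Lx2A1 stood farthest from the L1Md pattern, with 38 Seh1 peaks and 1 IgG peak, a ratio of 12.5 (2.12 to 508); it was chosen after its value was seen.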
